A study of Mus musculus with 9 samples.

Results

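Expression was followed for 10 genes of the brain vessel wall, Pecam1, Cdh5, Esam, Cldn5, Kdr, Flt1, Tek, Tie1, Slc2a1 and Mfsd2a. They were chosen by name with earlier results of these data known. Counts of them set beside the share of all genes are therefore a description and no test. They were matched by symbol to the Ensembl identifiers of a table of 57010 genes, and each of the 10 matched 1 identifier. All 10 had more than 10 reads in every embryo and so were among the 13680 genes tested. Cortical tissue came from single mouse embryos at E12.5, with 3 embryos each of 3 genotypes and 1 library per embryo. Control embryos (Ctrl) are labelled WT, and whether they carry Cre is not stated. Cnot3 cKO embryos conditionally lose Cnot3, a subunit of the CCR4-NOT complex that shortens the poly(A) tails of mRNA, and Cnot3;Trp53 dcKO embryos lose Cnot3 together with Trp53, which encodes p53. In both mutants floxed alleles are removed by Emx1-Cre, which is active in radial glia of the dorsal telencephalon and their progeny and is not a vessel-lineage driver. Between 21193798 and 28869816 reads were counted in a Ctrl embryo, between 24835674 and 25946075 in a cKO embryo, and between 23275370 and 45073349 in a dcKO embryo. Levels are given as CPM, read counts scaled to the library's size with TMM factors.

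Blood vessels enter the cortical wall from the plexus around the neural tube and are guided by growth factors made by neural progenitors. Endothelial cells, which line them, sense VEGF through Kdr and Flt1 and angiopoietins through Tek with its partner Tie1, and hold to each other through Cdh5, Pecam1, Esam and Cldn5. Brain endothelium gains barrier properties as it grows in, among them glucose uptake through Slc2a1 and lipid transport through Mfsd2a.

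The targeted genes were read first in every embryo. Cnot3 had 117.3, 107 and 98.2 CPM in Ctrl replicates 1, 2 and 3, 14.96, 17.3 and 14.6 CPM in the cKO embryos in the same order, and 7.33, 48.2 and 19.0 CPM in the dcKO embryos. Trp53 had 237, 254 and 215 CPM in Ctrl replicates 1, 2 and 3, 167, 164 and 167 CPM in the cKO embryos in the same order, and 15.1, 110.4 and 20.6 CPM in the dcKO embryos. The library labelled dcKO replicate 2 held more of both transcripts than the other dcKO embryos, and for Cnot3 the Ctrl embryos were higher than any mutant embryo. Pax6 and Sox2, markers of neural progenitors, were present in every embryo, with Pax6 between 118.8 and 157 CPM. Emx1, which marks the dorsal telencephalon, had 119.95, 69.4 and 43.8 CPM in Ctrl, 20.5, 20.4 and 23.7 in cKO and 7.94, 17.7 and 80.9 in dcKO. Libraries of the dcKO group stood apart from one another. The mean chi-square per gene between 2 embryos, about 1 for sampling noise alone, was 15.6 to 53.8 within Ctrl, 16.8 to 28.4 within cKO, and 185, 313 and 507 for the 3 pairs within dcKO. Among the quartile of tested genes with the highest transcript GC content, the median log2 ratio to the Ctrl mean was -1.06 and -1.13 in dcKO replicates 1 and 2 and 0.18 in dcKO replicate 3. Over the quartile with the lowest GC content it was 0.59, 0.83 and -0.08. The cKO embryos had -0.45, -0.30 and -0.50 over the GC-rich genes.

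The fitted log2 fold change against Ctrl was negative for all 10 vessel genes in dcKO, beside 5900 of all 13680 tested genes, and for 7 of the 10 in cKO, beside 6747 of all. With a block for the collection number in the embryo codes, Cldn5 (0.0244) and Slc2a1 (0.72) turned positive in dcKO against Ctrl. In dcKO the embryos of 7 genes lay below all Ctrl embryos (background 11.2%), while Tek, Cldn5 and Slc2a1 overlapped Ctrl. In cKO 9 of the 10 overlapped Ctrl and Mfsd2a lay below it, where 28.0% of all tested genes lay lower with no overlap, so 1 of 10 is below the share of all genes. The median edgeR log2 fold change over the 10 genes was -0.18 in cKO against Ctrl, -0.96 in dcKO against Ctrl and -0.81 in dcKO against cKO, beside 0.01, 0.11 and 0.07 over all tested genes. Comparisons against Ctrl share the Ctrl embryos, and dcKO against cKO shares embryos with each of them. The median log2 ratio of the 10 genes to the Ctrl mean was -0.02, 0.05 and -0.50 in the cKO embryos and -1.11, -1.26 and -0.68 in the dcKO embryos. Of the cKO embryos replicate 3 was the low one. In bulk tissue, fewer endothelial cells, less RNA per endothelial cell and a different mix of dissected tissue cannot be told apart. The GC-linked differences between libraries given above were not separated from these values here.

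A gene was called at a Benjamini-Hochberg adjusted p under 0.05 over all tested genes with an absolute log2 fold change above 1. The edgeR fit did not call the targeted genes either. Against Ctrl, Cnot3 had -2.78 in cKO (edgeR adjusted p = 0.0509) and -2.11 in dcKO (adjusted p = 0.0529). Trp53 had -2.27 in dcKO (edgeR adjusted p = 0.0605). A count of 0 from this fit is therefore weak evidence of no change. edgeR called 0 of the 10 in cKO against Ctrl, where it called 0.0146% of all tested genes, 0 in dcKO against Ctrl (0.0% of all) and 0 in dcKO against cKO (0.0146% of all). Beside those counts of 0, limma voom with sample quality weights called 1 lower in cKO against Ctrl (background 6.66%), 6 lower in dcKO against Ctrl (background 15.9%) and 0 in dcKO against cKO (background 0.175%). Its quality weights were 1.19 for dcKO replicate 1 and 0.125 and 0.112 for dcKO replicates 2 and 3, so its dcKO values rest mostly on 1 embryo. At an unadjusted edgeR p under 0.05, 1 of the 10 was lower in cKO against Ctrl (background 11.7%), 6 in dcKO against Ctrl (background 11.2%) and 5 in dcKO against cKO (background 2.38%). DESeq2 on the same genes called 1 lower in cKO against Ctrl (background 3.87%), 4 lower in dcKO against Ctrl (background 3.79%) and 1 lower in dcKO against cKO (background 0.351%). By DESeq2 Mfsd2a fell in cKO, and Cdh5, Esam, Tie1 and Mfsd2a fell in dcKO. Cdh5 also fell in dcKO against cKO. Counting genes whose 3 embryos all lay below the other 3, 1 of 10 did so in cKO against Ctrl (background 28.0%), 7 in dcKO against Ctrl (background 11.2%) and 5 in dcKO against cKO (background 3.63%). An exact permutation test of 3 embryos against 3 cannot give a p below 0.1, so none was run for single genes.

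The counts moved with the embryos left out, and so did the share of all genes called. Without dcKO replicate 3, edgeR called 6 of the 10 lower in dcKO against Ctrl (background 15.2%) and 4 in dcKO against cKO (background 6.42%). Without dcKO replicate 2 it called 1 lower in dcKO against Ctrl, Cdh5 (background 2.58%). Leaving out dcKO replicate 1, 2 or 3 gave 1 call in cKO against Ctrl, Mfsd2a, where 2.93%, 2.74% and 5.46% of all tested genes were called lower. The 4 DESeq2 calls in dcKO against Ctrl became 2 without Ctrl replicate 1 (background 1.03%), 1 without Ctrl replicate 2 (1.14%), 3 without Ctrl replicate 3 (2.96%), 3 without dcKO replicate 1 (1.31%) and 6 without dcKO replicate 3 (15.8%). Cdh5 was called in each of these 5 fits. The DESeq2 call in dcKO against cKO was lost without cKO replicate 1 (background 0.117%) or 2 (0.109%), while 2 genes were called without cKO replicate 3 (0.357%) and 4 without dcKO replicate 3 (7.48%).

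**Figure D1:**
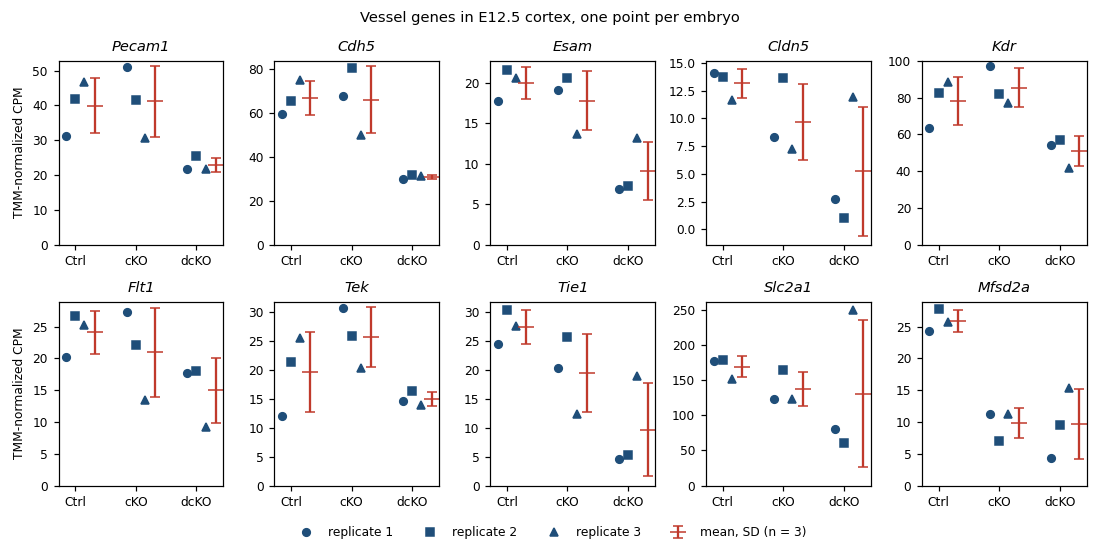
TMM-normalized CPM (y axis) of the 10 vessel genes in each of 9 embryos, by genotype (x axis). Points are embryos, shaped by replicate number, and the red bar and line give mean and SD of 3 embryos. All 3 dcKO embryos lie below all 3 Ctrl embryos for 7 genes, and dcKO replicate 3 is above the other dcKO embryos for Tie1, Esam, Cldn5, Slc2a1 and Mfsd2a.

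Of the adhesion and junction genes, Cdh5 was lower in dcKO by a near equal amount in all 3 embryos. Cdh5 (ENSMUSG00000031871.10, chr8:104101625-104144511, plus strand in GRCm38) encodes VE-cadherin, the cadherin of endothelial adherens junctions. It had 59.7, 65.7 and 75.0 CPM in Ctrl replicates 1, 2 and 3, 67.8, 80.5 and 50.2 CPM in the cKO embryos in the same order, and 30.0, 31.7 and 31.1 CPM in the dcKO embryos. The dcKO embryos were close to each other and each was below every Ctrl and every cKO embryo, while Ctrl and cKO overlapped. Means were 66.8 ± 7.69 CPM in Ctrl, 66.1 ± 15.2 in cKO and 30.9 ± 0.828 in dcKO (SD, n = 3). Its log2 fold change was -0.01 in cKO against Ctrl (SE 0.20, edgeR adjusted p = 0.969), -1.11 in dcKO against Ctrl (SE 0.20, adjusted p = 0.0502) and -1.10 in dcKO against cKO (SE 0.20, adjusted p = 0.331). DESeq2 gave adjusted p = 7.90e-05 in dcKO against Ctrl and 5.74e-04 in dcKO against cKO.

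Pecam1 (ENSMUSG00000020717.20, chr11:106654217-106750628, minus strand) encodes CD31, an adhesion receptor at contacts between endothelial cells that platelets and some leukocytes also carry. It had 31.2, 41.8 and 46.7 CPM in Ctrl replicates 1, 2 and 3, 51.2, 41.5 and 30.7 CPM in the cKO embryos in the same order, and 21.7, 25.3 and 21.7 CPM in the dcKO embryos. All dcKO embryos lay below all others, and the Ctrl and cKO embryos overlapped. Fitted by edgeR, the Pecam1 log2 fold change was 0.04 in cKO against Ctrl (SE 0.24, edgeR adjusted p = 0.921), -0.80 in dcKO against Ctrl (SE 0.24, adjusted p = 0.0717) and -0.84 in dcKO against cKO (SE 0.24, adjusted p = 0.866). Esam (ENSMUSG00000001946.15, chr9:37528078-37538319, plus strand), an adhesion molecule of endothelial tight junctions, had 17.7, 21.5 and 20.6 CPM in Ctrl replicates 1, 2 and 3, 19.0, 20.6 and 13.7 CPM in the cKO embryos in the same order, and 6.86, 7.18 and 13.2 CPM in the dcKO embryos. Here too the dcKO group did not overlap the others, although dcKO replicate 3 came close to cKO replicate 3. For Esam the log2 fold change was -0.17 in cKO against Ctrl (SE 0.30, edgeR adjusted p = 0.759), -1.14 in dcKO against Ctrl (SE 0.31, adjusted p = 0.0596) and -0.97 in dcKO against cKO (SE 0.31, adjusted p = 0.889). DESeq2 called it in dcKO against Ctrl (adjusted p = 0.004), and did not without Ctrl replicate 2. With 1 embryo left out, the edgeR value of Esam there ran from -1.51 to -0.97.

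Cldn5 (ENSMUSG00000041378.3, chr16:18776847-18778262, plus strand), the main claudin of the blood-brain barrier, had 14.1, 13.7 and 11.7 CPM in Ctrl replicates 1, 2 and 3, 8.28, 13.6 and 7.24 CPM in the cKO embryos in the same order, and 2.72, 1.05 and 11.9 CPM in the dcKO embryos. dcKO replicates 1 and 2 were the lowest of the 9 embryos, whereas dcKO replicate 3 was within the Ctrl range, so the groups overlapped. Cldn5 had a log2 fold change of -0.44 in cKO against Ctrl (SE 0.68, edgeR adjusted p = 0.712), -1.35 in dcKO against Ctrl (SE 0.70, adjusted p = 0.223) and -0.91 in dcKO against cKO (SE 0.69, adjusted p = 0.889). Without dcKO replicate 3 the value in dcKO against Ctrl was -2.81 (SE 0.45, edgeR adjusted p = 8.83e-04). With dcKO replicate 2 left out instead, the fit gave -0.86 (edgeR adjusted p = 0.292). Cldn5 had the fewest reads of the 10 genes, with 41 in its lowest library.

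The VEGF receptors had fitted values in dcKO against Ctrl nearer to 0 than Cdh5, though not in every embryo, since in dcKO replicate 3 the log2 ratio to the Ctrl mean was -1.40 for Flt1 and -1.10 for Cdh5. The difference between these genes was not tested. Kdr (ENSMUSG00000062960.11, chr5:75932827-75978458, minus strand), the main signalling receptor for VEGF, had 63.3, 82.3 and 88.5 CPM in Ctrl replicates 1, 2 and 3, 97.4, 82.2 and 76.9 CPM in the cKO embryos in the same order, and 54.1, 56.9 and 41.7 CPM in the dcKO embryos. Every dcKO embryo was below every Ctrl and cKO embryo. The fitted log2 fold change of Kdr was 0.13 in cKO against Ctrl (SE 0.20, edgeR adjusted p = 0.698), -0.62 in dcKO against Ctrl (SE 0.20, adjusted p = 0.0824) and -0.75 in dcKO against cKO (SE 0.20, adjusted p = 0.762). Flt1 (ENSMUSG00000029648.14, chr5:147561604-147726011, minus strand), which also binds VEGF and can act as a decoy, had 20.3, 26.7 and 25.3 CPM in Ctrl replicates 1, 2 and 3, 27.4, 22.1 and 13.5 CPM in the cKO embryos in the same order, and 17.7, 18.1 and 9.15 CPM in the dcKO embryos. The dcKO embryos were below the Ctrl embryos, with replicate 3 the lowest, and overlapped cKO through cKO replicate 3. For Flt1 the log2 fold change was -0.20 in cKO against Ctrl (SE 0.33, edgeR adjusted p = 0.735), -0.68 in dcKO against Ctrl (SE 0.34, adjusted p = 0.202) and -0.49 in dcKO against cKO (SE 0.33, adjusted p = 0.889).

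Tek and Tie1 differed from each other in pattern. Tek (ENSMUSG00000006386.16, chr4:94739289-94874976, plus strand), the angiopoietin receptor Tie2, had 11.99, 21.4 and 25.5 CPM in Ctrl replicates 1, 2 and 3, 30.7, 25.8 and 20.3 CPM in the cKO embryos in the same order, and 14.5, 16.3 and 13.9 CPM in the dcKO embryos. Its dcKO embryos lay below the cKO embryos but within the span of Ctrl, whose replicate 1 was the lowest of the 9. Its log2 fold change was 0.38 in cKO against Ctrl (SE 0.30, edgeR adjusted p = 0.43), -0.39 in dcKO against Ctrl (SE 0.30, adjusted p = 0.394) and -0.78 in dcKO against cKO (SE 0.30, adjusted p = 0.889). Leaving out 1 embryo gave 0.13 to 0.62 for Tek in cKO against Ctrl, -0.65 to -0.16 in dcKO against Ctrl and -0.96 to -0.63 in dcKO against cKO. Tie1 (ENSMUSG00000033191.15, chr4:118471191-118490061, minus strand), an orphan receptor that pairs with Tek, had 24.4, 30.3 and 27.6 CPM in Ctrl replicates 1, 2 and 3, 20.4, 25.6 and 12.3 CPM in the cKO embryos in the same order, and 4.64, 5.34 and 18.9 CPM in the dcKO embryos. All dcKO embryos were below all Ctrl embryos, but dcKO replicate 3 lay among the cKO values. For Tie1 the log2 fold change was -0.50 in cKO against Ctrl (SE 0.50, edgeR adjusted p = 0.551), -1.52 in dcKO against Ctrl (SE 0.51, adjusted p = 0.092) and -1.02 in dcKO against cKO (SE 0.51, adjusted p = 0.889). DESeq2 called Tie1 in dcKO against Ctrl (adjusted p = 0.0184), and lost the call without Ctrl replicate 1, 2 or 3 or without dcKO replicate 1. With 1 embryo left out, the edgeR value of Tie1 in dcKO against Ctrl ran from -2.46 to -1.18. Without dcKO replicate 3 its edgeR log2 fold change there was -2.46 (adjusted p = 3.42e-04), and without dcKO replicate 2 -1.23 (adjusted p = 0.138).

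**Figure D2:**
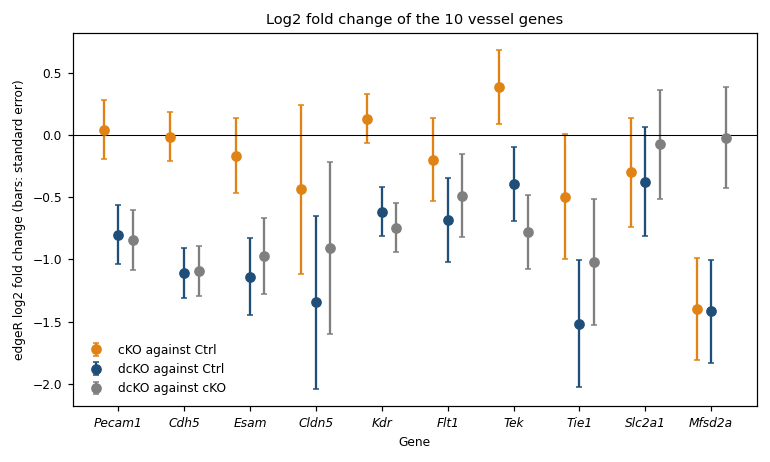
edgeR log2 fold change (y axis) of each vessel gene (x axis) in 3 comparisons, with bars of 1 standard error from the model of 9 embryos. Mfsd2a has about the same value against Ctrl in both mutants (-1.40 and -1.42), whereas Cdh5 has -0.01 in cKO and -1.11 in dcKO.

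Mfsd2a (ENSMUSG00000028655.12, chr4:122946850-122961188, minus strand) transports lysophospholipids carrying docosahexaenoic acid across brain endothelium and holds back vesicle traffic through it. It had 24.3, 27.8 and 25.7 CPM in Ctrl replicates 1, 2 and 3, 11.3, 7.07 and 11.2 CPM in the cKO embryos in the same order, and 4.28, 9.55 and 15.3 CPM in the dcKO embryos. Every mutant embryo of either genotype was below every Ctrl embryo, and the mutants overlapped. Means were 25.9 ± 1.75 CPM in Ctrl, 9.85 ± 2.41 in cKO and 9.71 ± 5.52 in dcKO (SD, n = 3). The fit gave Mfsd2a a log2 fold change of -1.40 in cKO against Ctrl (SE 0.41, edgeR adjusted p = 0.0727), -1.42 in dcKO against Ctrl (SE 0.41, adjusted p = 0.0669) and -0.02 in dcKO against cKO (SE 0.41, adjusted p = 0.999). DESeq2 gave adjusted p = 0.00938 in cKO and 0.00727 in dcKO. Fitted on only the 6 Ctrl and cKO embryos, edgeR called Mfsd2a in cKO (-1.40, adjusted p = 3.25e-04), together with 6.0% of all tested genes called lower. DESeq2 lost the cKO call without Ctrl replicate 1, Ctrl replicate 2 or cKO replicate 2, where it called 0 of the 10 (background 1.11%, 1.37% and 1.87%). The edgeR log2 fold change of Mfsd2a in these 3 cases was -1.44, -1.35 and -1.21. The dcKO call of Mfsd2a was also lost without Ctrl replicate 1 or Ctrl replicate 2. Its edgeR value in dcKO against Ctrl ran from -1.90 to -1.06 with 1 embryo left out.

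Slc2a1 (ENSMUSG00000028645.12, chr4:119108711-119137983, plus strand), the glucose transporter GLUT1 of barrier endothelium, red cells and neural progenitors, had 177, 179 and 152 CPM in Ctrl replicates 1, 2 and 3, 124, 165 and 124 CPM in the cKO embryos in the same order, and 80.5, 60.4 and 251 CPM in the dcKO embryos. dcKO replicates 1 and 2 were the lowest embryos and dcKO replicate 3 the highest of the 9. Slc2a1 had a log2 fold change of -0.30 in cKO against Ctrl (SE 0.44, edgeR adjusted p = 0.69), -0.38 in dcKO against Ctrl (SE 0.44, adjusted p = 0.585) and -0.08 in dcKO against cKO (SE 0.44, adjusted p = 0.997). Without dcKO replicate 3 the value in dcKO against Ctrl was -1.27 (edgeR adjusted p = 5.32e-04), and leaving out dcKO replicate 2 gave -0.04 (adjusted p = 0.955).

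Levels were compared between genes per kilobase of merged exons (RPKM). In Ctrl Slc2a1 stood first at 48.3 ± 4.27 RPKM (SD, n = 3), then Cdh5 at 15.9 ± 1.83, Mfsd2a at 11.5 ± 0.776 and Cldn5 at 9.29 ± 0.913. Those 4 did not overlap among the Ctrl embryos. Kdr (8.64 RPKM), Esam (6.96), Pecam1 (6.41), Tie1 (5.58) and Tek (4.16) followed, each overlapping its neighbour, and Kdr also overlapped Cldn5. Flt1 was last at 1.78 ± 0.248 RPKM, below Tek in every Ctrl embryo. In both mutants Slc2a1 and Cdh5 stayed first and second by mean. Mfsd2a had 4.38 RPKM in cKO, below Kdr at 9.47.

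The 10 genes divided by how dcKO replicate 3 compared with the other dcKO embryos. For Tek, Kdr, Pecam1, Flt1 and Cdh5, with transcript GC content from 47.1% to 52.2%, its log2 ratio to the geometric mean of replicates 1 and 2 ran from -0.97 to 0.01. For Esam, Slc2a1, Mfsd2a, Tie1 and Cldn5, with GC content from 53.7% to 60.5%, it ran from 0.91 to 2.82. Across the 10 genes this ratio and GC content correlated with r = 0.90 (n = 10 genes from the same 3 libraries, not independent replicates). Of the 10 genes, 7 lay in the third quartile of GC content over all tested genes (49.4% to 54.2%), Tek in the second, and Tie1 and Cldn5 in the highest. Over the third quartile the median log2 ratio to the Ctrl mean was -0.21 and -0.25 in dcKO replicates 1 and 2 and 0.07 in dcKO replicate 3. The 7 vessel genes in it spanned -0.97 to 1.85 in a different quantity, the ratio of replicate 3 to the others. Single genes spread more than a quartile's median, so the range and the medians cannot be compared. The values were fitted again with a GC correction added after seeing the data. With that correction all 10 stayed negative in dcKO against Ctrl, from -0.25 for Slc2a1 to -1.17 for Mfsd2a, and edgeR called 0 of them (background 0.347% lower). Cdh5 had -0.94 (edgeR adjusted p = 0.0454) and Esam -0.92 (adjusted p = 0.0492), both short of the fold limit. Tie1 had -1.12 (adjusted p = 0.0532) and Cldn5 -0.88 (adjusted p = 0.166). In cKO against Ctrl the corrected value of Mfsd2a was -1.27 (adjusted p = 0.0395), a call (background 1.75% lower), and that of Cldn5 turned to 0.18.

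**Figure D3:**
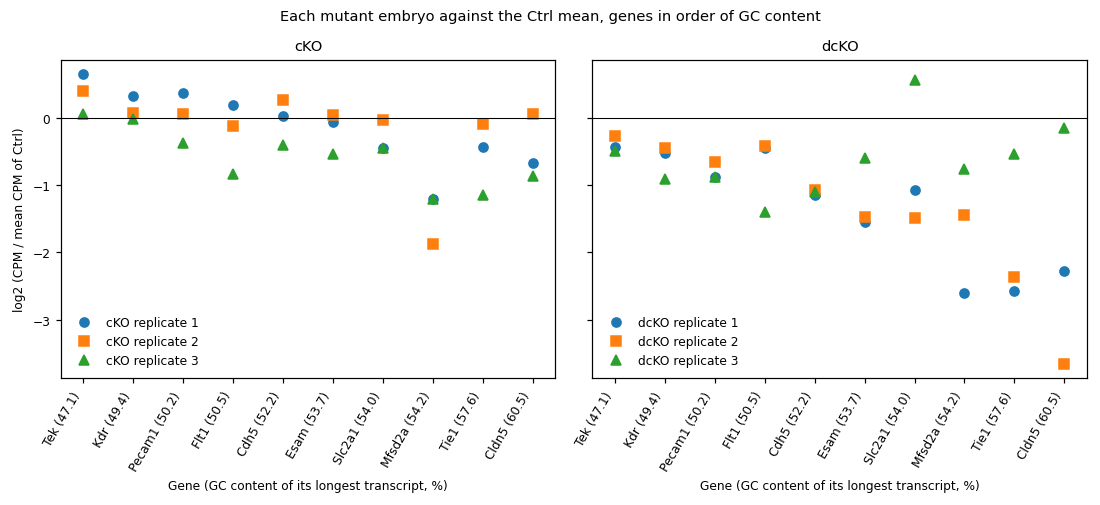
log2 ratio of CPM to the Ctrl mean (y axis) for each cKO embryo (left) and dcKO embryo (right), with the vessel genes on the x axis in order of the GC content of their longest transcript. Points are single embryos. dcKO replicates 1 and 2 reach -2.27 and -3.65 for Cldn5, where dcKO replicate 3 has -0.15, and the 3 embryos meet near -1.10 for Cdh5.

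Further gene lists were read against the shares of all tested genes given above for lower genes. Higher at an unadjusted edgeR p under 0.05 were 15.3% of all tested genes in cKO against Ctrl, 18.0% in dcKO against Ctrl and 2.05% in dcKO against cKO, and DESeq2 called 4.94%, 4.66% and 0.0292% higher. The most abundant gene of a list is the one with the highest mean CPM over the 9 embryos, and in some lists it did not lead in every genotype. Of 20 further endothelial genes, 18 were tested. edgeR called 0 in each comparison, and at an unadjusted p under 0.05 it had 0 lower in cKO against Ctrl, 8 in dcKO against Ctrl and 6 in dcKO against cKO. DESeq2 called 0, 5 and 0, all lower. Their median log2 fold changes were -0.30, -0.83 and -0.67. In dcKO against Ctrl 16 of the 18 were negative by edgeR, and Egfl7 (0.02) and Emcn (0.19) were positive. The 5 that DESeq2 called in dcKO were Eng, an endothelial TGF-beta co-receptor, Robo4, Ptprb (VE-PTP, a phosphatase that acts on Tek and Cdh5), Mmrn2 and the transcription factor Sox18. Robo4 had 7.79, 14.2 and 10.5 CPM in Ctrl, 9.52, 9.48 and 6.94 in cKO and 2.69, 2.35 and 6.29 in dcKO, a log2 fold change of -1.56 in dcKO against Ctrl (DESeq2 adjusted p = 0.00434). Ptprb had 6.89, 9.92 and 13.5 CPM in Ctrl, 11.3, 11.8 and 7.35 in cKO and 4.94, 3.75 and 4.93 in dcKO (-1.18, DESeq2 adjusted p = 0.00728). Eng was -1.53, Mmrn2 -1.05 and Sox18 -1.34 on the same scale. S1pr1, the most abundant of the list and also expressed outside vessels, had 59.6, 63.0 and 61.2 CPM in Ctrl, 48.2, 48.9 and 50.9 in cKO and 54.6, 80.0 and 44.1 in dcKO, with dcKO spanning the Ctrl values. In cKO the mean of Cd34, of the same list, was above that of S1pr1.

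Of 15 barrier and transport genes, 13 were tested and edgeR called 0 in every comparison. At an unadjusted p under 0.05, 3 were lower and 3 higher in cKO against Ctrl (background 11.7% and 15.3%). In dcKO against Ctrl 4 were lower and 3 higher (background 11.2% and 18.0%), and 1 was lower in dcKO against cKO (background 2.38%). DESeq2 called Lef1 lower and Ocln higher in cKO, Slc7a5, Plvap and Adgra2 lower in dcKO, and 0 between the mutants. Slc7a5, a large neutral amino acid transporter, had 145, 154 and 137 CPM in Ctrl, 88.5, 68.5 and 78.3 in cKO and 44.4, 72.7 and 70.6 in dcKO, with every mutant embryo below every Ctrl embryo (-1.25 in dcKO, DESeq2 adjusted p = 4.86e-05). Plvap, a marker of leaky fenestrated endothelium, had 20.3, 19.8 and 19.7 CPM in Ctrl, 10.6, 11.8 and 7.77 in cKO and 4.39, 3.68 and 12.2 in dcKO (-1.60 in dcKO, DESeq2 adjusted p = 0.00403). Adgra2 (GPR124, part of the receptor that takes up Wnt7 signals in brain endothelium) was -1.28 in dcKO (DESeq2 adjusted p = 0.0208). Lef1, a Wnt-responsive transcription factor also found in neural progenitors, was -1.17 in cKO (DESeq2 adjusted p = 0.0105), and Ocln, a tight junction gene of endothelium and other epithelia, had 1.14, 0.992 and 0.613 CPM in Ctrl, 3.17, 6.14 and 3.32 in cKO and 5.47, 0.664 and 2.48 in dcKO. Tjp1, the most abundant of the list, had 190.2, 168 and 194 CPM in Ctrl, 284, 297 and 284 in cKO and 344, 269 and 216 in dcKO. Its edgeR log2 fold change was 0.65 in cKO and 0.59 in dcKO. Abcg2, which was not called, had 25.6, 27.0 and 33.7 CPM in Ctrl, 54.4, 47.4 and 53.6 in cKO and 71.1, 48.3 and 45.5 in dcKO. Every mutant embryo was above every Ctrl embryo for Abcg2 (edgeR 0.85 in cKO and 0.93 in dcKO). Of the 13 tested genes, 7 were negative and 6 positive in cKO against Ctrl, and 8 and 5 in dcKO against Ctrl.

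All 12 angiogenic ligands were tested. edgeR called 0 in every comparison. At an unadjusted p under 0.05 it had 3 lower and 1 higher in cKO against Ctrl (background 11.7% and 15.3%). It had 4 lower and 1 higher in dcKO against Ctrl (background 11.2% and 18.0%), and 0 in dcKO against cKO. DESeq2 called 1 higher in cKO, 3 lower and 1 higher in dcKO, and 0 between the mutants. Angpt1, the ligand that activates Tek, was the gene higher in both, with 8.32, 9.03 and 8.36 CPM in Ctrl, 20.4, 18.1 and 28.8 in cKO and 47.5, 19.8 and 19.2 in dcKO. Every mutant embryo was above every Ctrl embryo, and DESeq2 gave 1.38 in cKO (adjusted p = 0.00598) and 1.73 in dcKO (adjusted p = 4.94e-04). Wnt7b, made by neural progenitors and needed for brain vessel growth, was the most abundant ligand, with 174, 155 and 116.6 CPM in Ctrl, 81.4, 98.5 and 74.4 in cKO and 39.3, 72.2 and 83.1 in dcKO. DESeq2 gave it -1.22 in dcKO (adjusted p = 0.00206). Dll4, the Notch ligand of sprouting tip cells, and Pdgfb, which recruits pericytes, were the others called in dcKO (-1.30 and -1.53, DESeq2 adjusted p = 0.00241 and 0.028). Of the 12, 9 were negative and 3 positive by edgeR in dcKO against Ctrl. The positive ones were Angpt1 (1.75), Esm1 (0.78) and Vegfc (0.18).

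Of the 8 further vessel receptors, all tested, edgeR called 0 in every comparison. At an unadjusted p under 0.05 it had 2 lower and 1 higher in cKO against Ctrl (background 11.7% and 15.3%). It had 6 lower in dcKO against Ctrl (background 11.2%) and 4 lower in dcKO against cKO (background 2.38%). DESeq2 called 1, 4 and 1 lower. Plxnd1, a semaphorin receptor of endothelium, had 93.0, 106 and 79.9 CPM in Ctrl, 58.8, 60.2 and 37.2 in cKO and 14.7, 18.5 and 48.6 in dcKO (-1.81 in dcKO, DESeq2 adjusted p = 8.74e-04). Unc5b, a netrin receptor, was lower in every mutant embryo, with 36.4, 37.0 and 29.7 CPM in Ctrl, 11.5, 13.5 and 17.3 in cKO and 8.995, 12.49 and 21.7 in dcKO (-1.30 in cKO and -1.29 in dcKO, DESeq2 adjusted p = 0.00319 and 0.00335). Acvrl1 (ALK1) and Flt4 (VEGFR3) were -1.49 and -1.05 in dcKO (DESeq2 adjusted p = 0.00654 and 0.0458). Aplnr, the apelin receptor, had 34.1, 54.2 and 62.3 CPM in Ctrl, 94.5, 87.0 and 63.5 in cKO and 39.8, 44.4 and 34.1 in dcKO, and DESeq2 called it between the mutants (-1.06, adjusted p = 0.0429). Bmpr2, the most abundant of the list, had 114, 109.8 and 131 CPM in Ctrl, 115.5, 113 and 92.1 in cKO and 127, 199 and 77.9 in dcKO.

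The summed level of markers of other cells found with vessels also had a lower mean in dcKO than in Ctrl, and their part in the vessel gene values was not tested. edgeR called 0 genes of these 5 lists in any comparison. Lower in dcKO against Ctrl at an unadjusted p under 0.05 (background 11.2%) were 3 of 8 mural and 5 of 9 erythroid genes. So were 1 of 9 macrophage, 2 of 2 platelet and 3 of 7 fibroblast genes. In dcKO against cKO it had 3 mural, 7 erythroid, 7 macrophage, 1 platelet and 0 fibroblast genes lower (background 2.38%). The median log2 fold changes of these 5 lists, in the same order, were -0.85, -0.98, -0.88, -1.46 and -0.33 in dcKO against Ctrl. They were -0.50, -1.05, -1.45, -0.95 and -0.33 in dcKO against cKO. Over the 10 vessel genes the medians were -0.96 and -0.81. In cKO against Ctrl 1 of 8 mural and 1 of 7 fibroblast genes were lower (background 11.7%). Higher there were 3 of 9 erythroid genes and 1 of 9 macrophage genes (background 15.3%). The counts of 1 are near or below the share of all genes. Pericyte and mural genes (8 of 11 tested) summed to 273, 267 and 226 CPM in Ctrl, 185, 203 and 156 in cKO and 93.7, 109.9 and 231 in dcKO, with Notch3 the most abundant gene and Tagln at 0 in 6 of the 9 embryos. DESeq2 called 0 of them in cKO, Vtn and Pdgfrb lower in dcKO, and Abcc9 lower between the mutants. Erythroid genes (all 9 tested) summed to 10221, 11462 and 7691 CPM in Ctrl, 14502, 9532 and 12855 in cKO and 6785, 4948 and 6535 in dcKO, with Hbb-y the most abundant. DESeq2 called 0 in cKO, Hbb-bt, Hba-x, Hba-a1 and Hba-a2 lower in dcKO, and Hbb-y and Hba-x lower between the mutants. Several globin genes are near-identical copies, so their counts are uncertain. Macrophage and microglia genes (9 of 11 tested) summed to 56.5, 66.5 and 62.7 CPM in Ctrl, 115, 145 and 73.1 in cKO and 46.3, 27.0 and 49.6 in dcKO, with Aif1 at 0 in dcKO replicate 2. Mrc1 was the most abundant over the 9 embryos, though Csf1r had the higher mean in Ctrl, and DESeq2 called Mrc1 higher in cKO and lower between the mutants. Platelet genes (2 of 4 tested) summed to 17.5, 23.0 and 31.5 CPM in Ctrl, 14.5, 18.6 and 15.6 in cKO and 4.86, 12.1 and 11.4 in dcKO, led by Pf4, and DESeq2 called Pf4 and Itga2b lower in dcKO. Gp9 was at 0 in dcKO replicate 1. Meningeal fibroblast genes (7 of 8 tested) summed to 793, 864 and 784 CPM in Ctrl, 505, 698 and 455 in cKO and 330.0, 346 and 521 in dcKO, led by Col3a1, and DESeq2 called Col3a1, Col1a1 and Col1a2 lower in dcKO. The other tested genes of this list, Dcn, Lum, Foxc1 and Ogn, had edgeR values of -0.33, -0.05, 0.09 and 0.15 in dcKO against Ctrl. Of the whole list 5 were negative and 2 positive there. In cKO against Ctrl 3 were negative and 4 positive (median 0.00).

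Markers of the cortical tissue itself and of the neighbouring choroid plexus differed between embryos as well. Cortical progenitor genes (8 of 8 tested) summed to 2089.9, 1948 and 1876 CPM in Ctrl, 1561, 1463 and 1326 in cKO and 1524, 2325 and 1433 in dcKO, led by Nes, and DESeq2 called Emx1 and Hes5 lower in cKO and 0 in dcKO. Neuron genes (6 of 6 tested) summed to 1680.2, 1509.6 and 1300.1 CPM in Ctrl, 1137, 1249 and 946 in cKO and 794, 1649.6 and 1226 in dcKO, and DESeq2 called 0. Tubb3 was the most abundant over the 9 embryos and in Ctrl, while Map2 had the higher mean in cKO and in dcKO. None of the 4 choroid plexus genes had enough reads to be tested. They summed to 1.30, 1.59 and 0.901 CPM in Ctrl, 10.8, 28.7 and 54.4 in cKO and 83.4, 10.3 and 13.8 in dcKO, and Ttr, the most abundant over the 9 embryos, was at 0 in all Ctrl embryos and had 5.91, 10.9 and 32.8 CPM in cKO and 56.9, 3.42 and 6.17 CPM in dcKO. The part of these differences in the vessel gene values was not tested.

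The genes whose pattern over the 9 embryos was most like that of the 10 vessel genes were ranked by Pearson r of log2 CPM with the mean of the 10 after centring each. The 15 highest were Robo4 (r = 0.98), Anxa6, Arhgef15, Itga5, Stab1, Col4a2, Piezo1, Col15a1, Cables2, Parvb, Col4a1, Plxnd1, S100a16, Lamb1 and Acvrl1 (r = 0.95). The r is a description over 9 embryos that share genotypes and library properties. Robo4, Plxnd1 and Acvrl1 were on the lists of vessel genes, and the other 12 were on none of them. Among the 12 are Col4a1 and Col4a2, the chains of basement membrane collagen IV, and Lamb1, a laminin chain. Col4a1 had 437, 466 and 368 CPM in Ctrl, 269.6, 333 and 173 in cKO and 74.4, 80.2 and 247 in dcKO. Its dcKO replicates 1 and 2 were the lowest of the 9 embryos, dcKO replicate 3 lay among the cKO values, and no mutant embryo reached the Ctrl range.

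Promoter sequences of 300 bases, running from upstream to just past the transcription start in RefSeq on GRCm38.p6, were held for 7 of the 10 genes, and not used here for Pecam1, Cdh5 and Esam. For Tie1 most of the window lies inside the gene as annotated in GENCODE, whose 5′ end is at 118490061. They were searched on both strands for 2 cores bound by ETS factors, which act in endothelial genes, and for a GATA and a SOX core. The core CCGGAA was in 1 of the 7 (Kdr) and in 14.9% of all 32851 promoters, and CAGGAA was in 3 of the 7 (Tek, Tie1 and Mfsd2a) and in 30.6% of all. AGATAA and ACAAT were each in 1 of the 7 (Tek), and in 11.2% and 31.0% of all. The match count is a description and names no binding site. Flt1, Cldn5 and Slc2a1, whose means were also lower in dcKO than in Ctrl, had neither ETS core in this window, and the share with CCGGAA was near that of all promoters. The 4 promoters with an ETS core are shown so that the matches can be read in their sequence, with the ETS matches in capitals as read on the gene's strand, 5′ to 3′. They lie at Kdr, chr5:75978406-75978705, minus strand, Tek, chr4:94739039-94739338, plus strand, Tie1, chr4:118489800-118490099, minus strand and Mfsd2a, chr4:122961139-122961438, minus strand.
Kdr: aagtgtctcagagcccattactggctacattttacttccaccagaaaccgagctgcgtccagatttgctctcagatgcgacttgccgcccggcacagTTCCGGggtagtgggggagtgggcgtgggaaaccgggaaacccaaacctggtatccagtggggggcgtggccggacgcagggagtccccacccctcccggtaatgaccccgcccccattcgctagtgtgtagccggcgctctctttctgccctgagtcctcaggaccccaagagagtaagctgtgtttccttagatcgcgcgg
Tek: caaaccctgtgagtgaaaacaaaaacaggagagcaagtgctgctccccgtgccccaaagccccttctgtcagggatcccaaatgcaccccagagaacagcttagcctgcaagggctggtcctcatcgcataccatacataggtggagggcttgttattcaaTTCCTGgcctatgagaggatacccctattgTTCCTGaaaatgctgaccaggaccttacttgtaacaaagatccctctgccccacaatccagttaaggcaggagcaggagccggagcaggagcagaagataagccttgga
Tie1: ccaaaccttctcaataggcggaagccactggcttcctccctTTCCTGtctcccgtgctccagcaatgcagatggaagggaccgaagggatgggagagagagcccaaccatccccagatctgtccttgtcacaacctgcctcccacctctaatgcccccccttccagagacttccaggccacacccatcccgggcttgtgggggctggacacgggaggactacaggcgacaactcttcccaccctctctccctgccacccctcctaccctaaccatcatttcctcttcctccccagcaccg
Mfsd2a: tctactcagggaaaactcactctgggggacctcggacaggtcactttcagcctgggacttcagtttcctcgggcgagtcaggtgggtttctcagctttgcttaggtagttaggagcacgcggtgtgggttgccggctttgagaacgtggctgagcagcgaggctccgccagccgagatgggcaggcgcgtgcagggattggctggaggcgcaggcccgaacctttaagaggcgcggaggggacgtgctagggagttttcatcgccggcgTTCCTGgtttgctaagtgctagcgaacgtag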

How the data were processed

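The authors deposited raw counts per gene for cortex of 9 single E12.5 embryos, made with Cutadapt, STAR (mm39) and featureCounts. The members and lists were chosen with earlier results of these data known. Counts were fitted in R 4.3.3 with edgeR 4.0.16 (TMM, quasi-likelihood, one model of all embryos) for genes above 10 reads in each embryo. DESeq2 1.42.0 and limma 3.58.1 were alternatives, and edgeR and DESeq2 were tested on simulated data. SE is the log2 fold change divided by the square root of F, and log2 CPM had a prior count of 0.5. GC content, exon lengths and coordinates came from GENCODE M21 on GRCm38, and 52029 identifiers matched a symbol. Named are the 10 genes, Cnot3, Trp53, each list's called genes and most abundant gene, and the 15 genes most like the 10. Cd34, Csf1r and Map2 are named because each led its list in a genotype. The fibroblast genes that were not called are named for comparison, as are Emcn, Egfl7, Abcg2, Esm1 and Vegfc. Pax6, Sox2 and markers at 0 were named after their values were seen. Other alternatives were RLE or upper-quartile factors, other filters and thresholds, fits on 6 embryos or with each left out, and blocks for replicate or collection number. The GC correction (loess span 0.3), DESeq2 with embryos left out and DESeq2 with a replicate block were chosen after seeing the data. Python 3.11.15, NumPy 2.4.6 and pandas 2.3.3 were used.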

Additional observations from a re-analysis of the deposited data

How the results depend on the processing

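The median log2 fold change of the 10 genes ran from -0.26 to 0.0038 in cKO against Ctrl, -1.19 to -0.85 in dcKO against Ctrl and -1.01 to -0.65 in dcKO against cKO with embryos left out in turn. The upper end in cKO, 0.0038, is without cKO replicate 3. The embryos' own medians had an SD of 0.14 in Ctrl, 0.30 in cKO and 0.30 in dcKO. edgeR called 0, 0 and 0 of the 10 genes in cKO against Ctrl, dcKO against Ctrl and dcKO against cKO. In cKO against Ctrl it called 1 with no filter, in a model of only the 6 embryos compared, with a collection number block, after the GC correction and at an adjusted p under 0.1 with the fold limit, and DESeq2 and limma voom also called 1, Mfsd2a in each case, where 1.59% to 7.52% of all tested genes were called lower. In dcKO against Ctrl DESeq2 called 4 lower (3.79% of all genes), limma voom 6 (15.9%; weights of 1.19, 0.125 and 0.112 for the dcKO embryos), no filter 4 (1.41%) and the adjusted p under 0.1 with the fold limit 4 (2.88%). The collection number block called 4 (2.95%), Pecam1, Cdh5, Kdr and Flt1, of which DESeq2 called Cdh5. In dcKO against cKO DESeq2 called 1 (0.351%), and the collection number block 5, with 4 lower (1.71%) and Slc2a1 higher (9.86%). With an embryo left out, edgeR called 0 to 1, 0 to 6 and 0 to 4, and DESeq2 0 to 1, 1 to 6 and 0 to 4. In edgeR 6 and 4 came without dcKO replicate 3. The collection number, taken from embryo codes whose meaning is not stated, leaves the dcKO value on 1 pair, Ctrl and dcKO replicate 3.

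The replicate block gave 0, 0 and 0 called genes among the 10, and 0 over all tested genes. Same-numbered embryos are different animals, and their deviations had a mean r of -0.17, against 0.08 for other pairs. The best match of an embryo in another genotype had its own number in 2 of 18 cases, so the numbers were not taken to pair embryos. With the GC correction and the replicate block, the edgeR call of Mfsd2a in cKO that the GC correction gave was lost, at a log2 fold change of -1.26, and 0 of all genes were called lower there. DESeq2 with the replicate block called 1, 4 and 1 lower (3.30%, 4.05% and 0.175% of all genes).

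Some single genes changed sign, and the cause was not tested. In cKO against Ctrl, Pecam1 (0.04) was -0.0173 with filterByExpr, -0.0163 with no filter, -0.0146 with the collection number block, -0.0370 with the GC correction and -0.0479 with the replicate block and GC correction. Cdh5 was 0.0895 with upper-quartile factors and 0.0248 with the collection number block, and Cldn5 0.18 with the GC correction and 0.21 with the replicate block and GC correction. Leaving out embryos gave -0.14 to 0.20 for Pecam1, -0.18 to 0.14 for Cdh5, -0.0005 to 0.23 for Kdr and -0.43 to 0.0264 for Flt1. With the collection number block, Cldn5 and Slc2a1 were 0.0244 and 0.72 in dcKO against Ctrl, and Tie1, Cldn5, Slc2a1 and Mfsd2a were 0.0584, 0.50, 1.04 and 0.80 in dcKO against cKO. There Mfsd2a was 0.10 with the GC correction and 0.0510 with the replicate block and GC correction, and leaving out embryos gave -0.96 to 0.27 for Slc2a1 and -0.51 to 0.33 for Mfsd2a. Of all other single-gene values, 528 kept their direction and side of the threshold and 43 gained a call. Upper-quartile factors moved the median of all genes in cKO against Ctrl from 0.01 to 0.12.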
